A study of Mus musculus with 27 samples.

Results

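The genes described here are 10 genes that mark or regulate the stem cells at the base of the intestinal crypt, Lgr5, Olfm4, Ascl2, Smoc2, Axin2, Rnf43, Znrf3, Prom1, Msi1 and Slc12a2. They were chosen by name, with no measured value in the rule but with earlier results of these data known. Their Ensembl identifiers were matched to symbols. All 10 were present among the 22524 genes counted in each library.

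Stem cells of the small intestinal crypt divide continuously and are kept by Wnt signals, which are strengthened when R-spondins bind the receptor Lgr5 and its relatives. Wnt signalling stabilises beta-catenin, which acts with TCF/LEF factors on genes such as Axin2, Rnf43, Znrf3 and Ascl2. Of these, Ascl2 encodes a transcription factor of the stem cell state, whereas Axin2, Rnf43 and Znrf3 encode inhibitors that dampen the same signal. Jejunal organoids are cultures of primary epithelium that grow from such stem cells and hold differentiated cells beside them.

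The study compared organoids from C57BL/6 mice of different colonisation status with other cultured cells. Organoids and an intestinal cell line were also compared with and without tumour necrosis factor (TNF). Organoids from the distal jejunum of 9 male mice, cohoused littermates of 8 to 12 weeks within each facility, were frozen, thawed and used at passage 5 to 8. With 3 mice for each, the donors were specific pathogen-free (SPF) mice of the facilities SR and SE or germ-free mice (GF). One library per culture was labelled untreated and 1 was labelled as given 5 ng/ml TNF for 8 h. The same pair was made for 3 cultures (M1 to M3) of m-ICc12, an immortalised epithelial line of the mouse small intestine. Mouse embryonic fibroblasts (MEFs) gave 3 libraries (R1 to R3), all labelled untreated. The labels do not say whether the 3 m-ICc12 or the 3 MEF samples were grown separately, so p-values that involve them measure the spread between these samples, which may be technical. Levels are CPM, gene counts scaled to a common library size with TMM factors computed over all 27 libraries.

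Libraries held 6071103 to 43843615 counts on genes (median 30339856), so that the detection floor of 3 counts stood at 0.0657 to 0.523 CPM on the scale of the levels below. The shallowest library was M1 labelled TNF. The treatment labels were checked with 4 target genes of TNF signalling, Nfkbia, Nfkb2, Tnfaip3 and Relb, which TNF is known to induce. Each of them was higher under the label untreated in 9 of 9 organoid cultures and in 3 of 3 m-ICc12 cultures, with Nfkbia 5.34 to 6.99 times higher in the organoids. The names of the deposited data carry the opposite treatment to the sample labels. Groups and directions below follow the labels, and every difference between labels is therefore given as between libraries labelled TNF and libraries labelled untreated. Should the labels be exchanged, the libraries labelled untreated are those given TNF, and genes lower under the label TNF were higher with TNF. No difference between labels is given here as an effect of TNF.

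Marker genes were set beside the labelled cell types. Summed levels of 5 genes listed for intestinal identity were 3434 to 4052 CPM in the organoid libraries labelled untreated. They were 79.8 to 176 CPM in the m-ICc12 libraries labelled untreated and 4.48 to 6.90 CPM in the MEF libraries. In m-ICc12, most of that sum came from Hnf4a (mean 132 CPM), whereas Cdx2 had a mean of 0.254 CPM against 180 CPM in the organoids. The kidney tubule genes Pax2, Pax8 and Cdh16 summed to 903 to 1139 CPM in these m-ICc12 libraries and to 1.86 to 6.21 CPM in the organoids. Thus 4 of the 5 listed genes, Cdx1, Cdx2, Epcam and Cdh1, were near 0 in the line that the study describes as intestinal (means of 0.254 to 4.37 CPM). Fibroblast markers summed to 3317 to 4376 CPM in the MEFs and to at most 20.7 CPM in the organoids.

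Promoter sequence was taken from RefSeq (GRCm38.p6), which gave windows for 5 of the 10 genes, Olfm4, Ascl2, Axin2, Rnf43 and Prom1. The 250 bases before each RefSeq start were searched on both strands for CTTTGA, the core of the TCF/LEF motif, and for GGGANTTNC, letters shared by many sites of the TNF-activated factor NF-kB. The latter occurred once in the 5 genes, before Olfm4, 43 to 51 bases ahead of its start and on the reverse strand, and CTTTGA occurred in none of their windows. The match lies within the gene as GENCODE vM21 annotates it, since 51 of these 250 bases, the match among them, are in an exon of other Olfm4 transcripts. Over all 32851 windows of this length, 3.54% held GGGANTTNC and 13.8% held CTTTGA. The stretch of Olfm4 with this match (chr14:80000241-80000269, plus strand) and the window of Ascl2 (chr7:142969265-142969514, minus strand) are shown because these genes differed most between the labels. Capitals mark the match, and the window of Ascl2 has none. Both motifs were chosen with the values of Olfm4 known, and a match describes letters and not binding.
Olfm4: ctggccatggGGAAATCCCcactgggagc
Ascl2: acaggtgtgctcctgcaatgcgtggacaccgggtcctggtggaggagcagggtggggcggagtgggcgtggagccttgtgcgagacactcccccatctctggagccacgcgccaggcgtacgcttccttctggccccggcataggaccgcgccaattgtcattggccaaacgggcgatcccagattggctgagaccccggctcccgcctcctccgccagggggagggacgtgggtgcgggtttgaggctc

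In organoids, all 10 genes were measured far above the detection floor, with at least 101 counts in the library where the lowest of them was found. To compare genes with each other, CPM were divided by the length of the merged exons in kb. On this scale Olfm4, which encodes a secreted glycoprotein of crypt base cells, had the highest level in the 9 libraries labelled untreated, at 299 ± 137 CPM per kb (SD, n = 9). It was followed by Slc12a2, which encodes the sodium-potassium-chloride cotransporter of secreting epithelia, at 113 ± 13.8 CPM per kb. Smoc2, which encodes a matricellular calcium-binding protein of stem cells, stood at 76.0 ± 14.4 CPM per kb. The range of Olfm4 lay above that of Slc12a2, whereas the ranges of Slc12a2 and Smoc2 overlapped. In the libraries labelled TNF this order turned, with Slc12a2 at 90.3 ± 6.16, Olfm4 at 84.8 ± 60.4 and Smoc2 at 82.0 ± 11.7 CPM per kb (SD, n = 9), and the range of Olfm4 overlapped both others.

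Prom1, which encodes a pentaspan protein of membrane protrusions, came next at 33.3 ± 5.06 CPM per kb, below the range of Smoc2. Axin2, a scaffold of the beta-catenin destruction complex, had 22.2 ± 3.59 CPM per kb. From Prom1 on, each gene in the libraries labelled untreated overlapped in range with the one after it in the order Prom1, Axin2, Rnf43, Ascl2, Lgr5, Msi1 and Znrf3. Lgr5 stood at 14.8 ± 4.72 CPM per kb. The RNA-binding protein gene Msi1 stood at 8.63 ± 3.32 CPM per kb and Znrf3, a ubiquitin ligase that removes Wnt receptors from the surface, at 4.29 ± 1.42 CPM per kb. In the libraries labelled TNF, Ascl2 stood at 5.42 ± 2.34 CPM per kb, after Lgr5 at 15.5 ± 5.78 CPM per kb. Merged exons are longer than most single transcripts, so these levels order the genes only roughly.

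The comparison of organoids with m-ICc12 asked how far the cell line shares the expression of crypt stem cells. Among libraries labelled untreated, 8 of the 10 genes were higher in organoids and 1, Prom1, was lower (edgeR quasi-likelihood F-test, Benjamini-Hochberg adjusted p under 0.05). Of all 12962 genes tested, 31.6% were higher and 29.3% lower. The median log2 fold change of the 10 genes was 8.14, against 0.03 over all genes tested. Znrf3 was the gene that did not pass. Markers of differentiated intestinal cells were also higher in organoids, with 7 of 7 enterocyte genes (median 9.26), 4 of 4 tested Paneth genes (9.52), 5 of 5 goblet genes (8.68), 4 of 4 enteroendocrine genes (9.89) and 4 of 4 tuft genes (7.82) called. In these bulk libraries, fewer cells of a type and less RNA per cell cannot be told apart.

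The receptor gene Lgr5 (chr10:115450311-115587780, minus strand) ranged from 83.2 to 220 CPM in the 9 organoid libraries labelled untreated, with a median of 154 CPM. In the m-ICc12 libraries with that label it stood at 0.322, 2.01 and 0.144 CPM, from 11, 92 and 6 counts in M1, M2 and M3. All 9 organoid libraries were above all m-ICc12 libraries, and the log2 difference was 7.48 ± 0.64 (SE, edgeR, adjusted p = 3.24e-08). In the MEFs Lgr5 had 0.0949, 0.252 and 0.384 CPM.

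Olfm4 (chr14:79984081-80023139, plus strand) ranged from 561 to 1884 CPM with a median of 788 CPM in these organoid libraries. Its values in m-ICc12 were 1.41, 3.20 and 0.361 CPM, and those in MEFs were 0.688, 1.33 and 0.499 CPM. Organoids were higher than m-ICc12 by 9.07 ± 0.67 on the log2 scale (edgeR, adjusted p = 4.69e-09). Within the cell line, Lgr5, Olfm4 and Smoc2 were all highest in M2 and lowest in M3 among the libraries labelled untreated. Enterocyte markers in these libraries summed to 48.2, 47.7 and 19.5 CPM for M1, M2 and M3, so that M1 was not below M2. Most of that sum came from Vil1 (mean 33.1 CPM). The relation of these markers to the levels of Lgr5, Olfm4 and Smoc2 was not tested.

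Ascl2 (chr7:142966829-142969264, minus strand) was present in every organoid library and absent or at single counts elsewhere. It ranged from 17.8 to 40.2 CPM with a median of 29.8 CPM in organoid libraries labelled untreated. Across the m-ICc12 libraries labelled untreated the highest count was 1, and across the MEFs it was 2. Taken against the floor of 3 counts in the shallowest library of each group, organoids were at least 322-fold higher than m-ICc12 and at least 246-fold higher than MEFs. Msi1 (chr5:115429599-115455698, plus strand), which ranged from 26.3 to 84.2 CPM in these organoid libraries, had at most 1 count in m-ICc12 libraries labelled untreated, which made organoids at least 569-fold higher.

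Smoc2 (chr17:14279506-14404790, plus strand) set the cell line apart from the fibroblasts. It ranged from 396 to 726 CPM in organoid libraries labelled untreated, and had 1.11, 1.77 and 0.336 CPM in m-ICc12 but 47.2, 58.7 and 42.7 CPM in MEFs. None of the 3 groups overlapped with another. The organoids were above MEFs by 3.43 ± 0.20 on the log2 scale (edgeR, adjusted p = 2.19e-10), and m-ICc12 was below MEFs with a log2 difference of -5.56 ± 0.43 (edgeR, adjusted p = 1.98e-07).

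The genes of Wnt feedback did not behave alike. Axin2 (chr11:108920349-108950783, plus strand) ranged from 92.9 to 154 CPM in organoid libraries labelled untreated, against 1.79, 1.20 and 2.02 CPM in m-ICc12 and 1.61, 1.44 and 0.729 CPM in MEFs. Rnf43 (chr11:87662722-87735539, plus strand), a ubiquitin ligase with the same role as Znrf3, ranged from 102 to 133 CPM in the organoids and stood at 0.439, 0.372 and 0 CPM in m-ICc12. Both were higher in organoids than in m-ICc12, Axin2 by 6.22 ± 0.24 and Rnf43 by 8.79 ± 0.44 on the log2 scale (edgeR, adjusted p = 1.96e-12 and 3.58e-11).

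Znrf3 (chr11:5276324-5444847, minus strand), the homologue of Rnf43, was measured in all cell types. Its values ranged from 15.5 to 50.9 CPM in organoid libraries labelled untreated, with 24.2, 24.7 and 26.1 CPM in m-ICc12 and 17.8, 19.2 and 13.7 CPM in MEFs. The m-ICc12 values lay within the range of the organoids. Organoids differed from m-ICc12 by 0.46 ± 0.28 on the log2 scale (edgeR, adjusted p = 0.158, and 0.0395 without Z908), and from MEFs by 1.02 ± 0.30 (edgeR, adjusted p = 0.00606).

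Prom1 (chr5:43993620-44102032, minus strand) was the gene that was higher in the cell line. It ranged from 186 to 303 CPM in organoid libraries labelled untreated, and stood at 673, 905 and 468 CPM in m-ICc12 and at 0.736, 0.655 and 0.921 CPM in MEFs. Without overlap, m-ICc12 was highest and MEFs were lowest. The log2 difference of organoids from m-ICc12 was -1.49 ± 0.16 (edgeR, adjusted p = 4.72e-07), and that of m-ICc12 from MEFs was 9.76 ± 0.31 (edgeR, adjusted p = 3.43e-11). The same m-ICc12 libraries carried the kidney tubule markers given above, whose part in the level of Prom1 was not tested.

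Slc12a2 was measured at high levels in each cell type, in the order organoid, m-ICc12 and MEF. It ranged from 955 to 1456 CPM in organoid libraries labelled untreated, and had 128, 185 and 187 CPM in m-ICc12 and 53.7, 57.0 and 39.9 CPM in MEFs. The groups did not overlap. The organoids were above m-ICc12 by 2.91 ± 0.17 and m-ICc12 was above MEFs by 1.69 ± 0.19 on the log2 scale (edgeR, adjusted p = 1.84e-10 and 5.73e-06).

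Against MEFs, all 10 genes were higher in organoids, with Prom1 at 8.31 ± 0.23 and Slc12a2 at 4.64 ± 0.18 on the log2 scale. Of all 13144 genes tested, 34.6% were higher in organoids and 32.6% lower. With the organoid libraries labelled TNF, the same 10 genes were higher than in MEFs, as were 4776 of 13201 genes. The MEFs have no library labelled TNF. If the labels are exchanged, the libraries labelled untreated set TNF-treated organoids or m-ICc12 against untreated MEFs. Between m-ICc12 and MEFs 9 of the 10 genes had enough counts to be tested, of which Prom1 and Slc12a2 were higher and Smoc2 was lower in m-ICc12. Here 28.1% of 12830 genes were higher and 31.2% lower. Znrf3 missed the threshold in this comparison (log2 difference 0.52 ± 0.21, edgeR, adjusted p = 0.0508), and passed it with DESeq2 (adjusted p = 0.0408) and in the libraries labelled TNF (0.91, edgeR, adjusted p = 0.0193). With libraries labelled TNF instead of untreated, the log2 difference of organoids from m-ICc12 became 8.45 for Lgr5, 7.82 for Olfm4 and 6.70 for Msi1, and turned to -0.19 for Znrf3 (edgeR, adjusted p = 0.509).

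**Figure D1:**
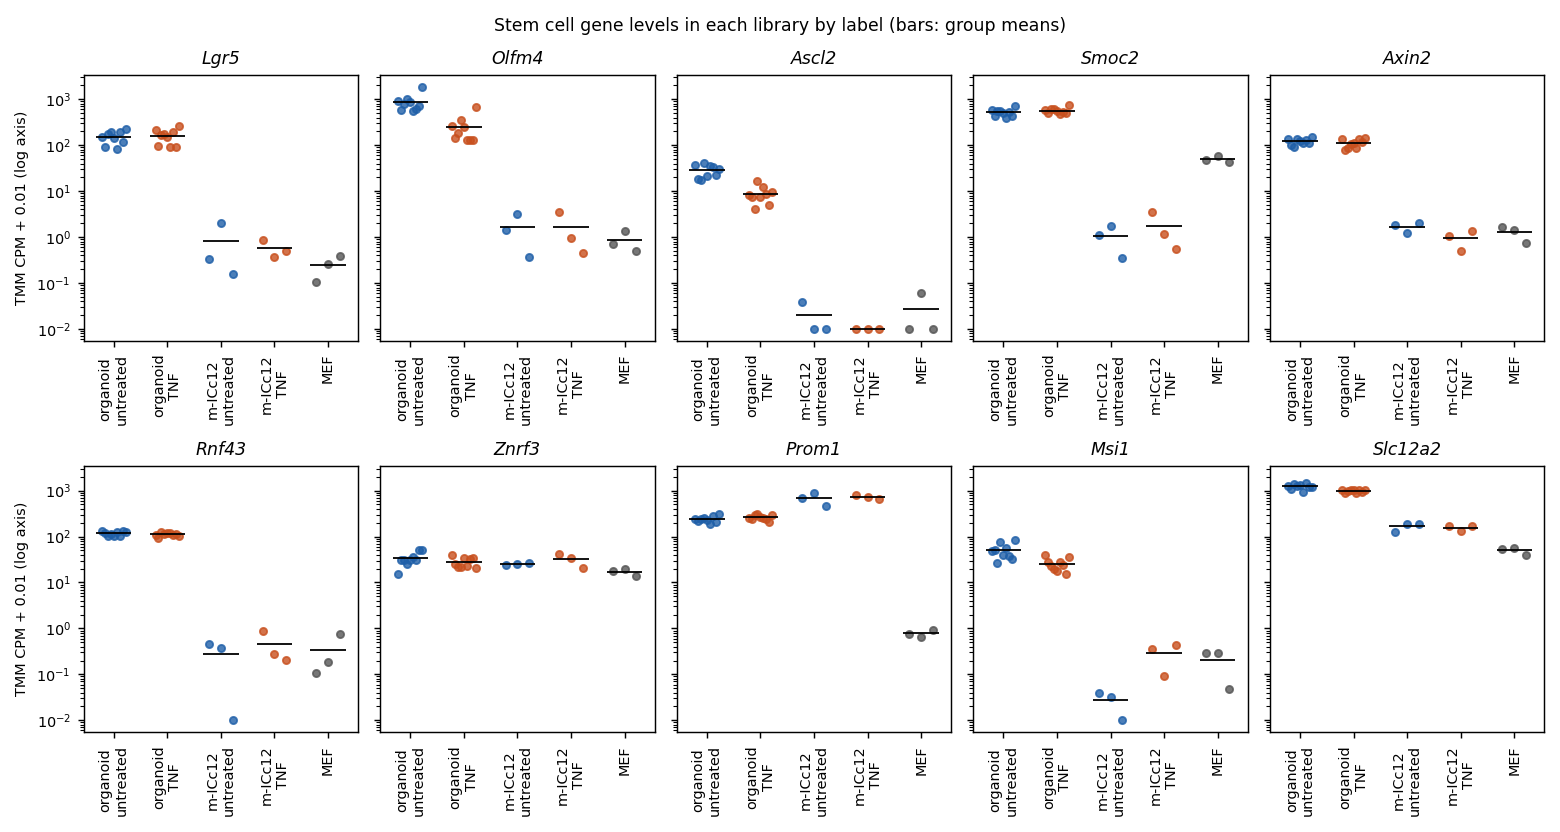
TMM CPM plus 0.01 on a log axis for each of the 10 genes, with 1 point for each library, columns for the labelled groups (9 organoid libraries per label, 3 libraries for m-ICc12 per label and 3 for MEF) and bars for group means. Organoid points lie above the others except for Prom1, which is highest in m-ICc12, and Znrf3, whose groups lie close together.

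**Figure D2:**
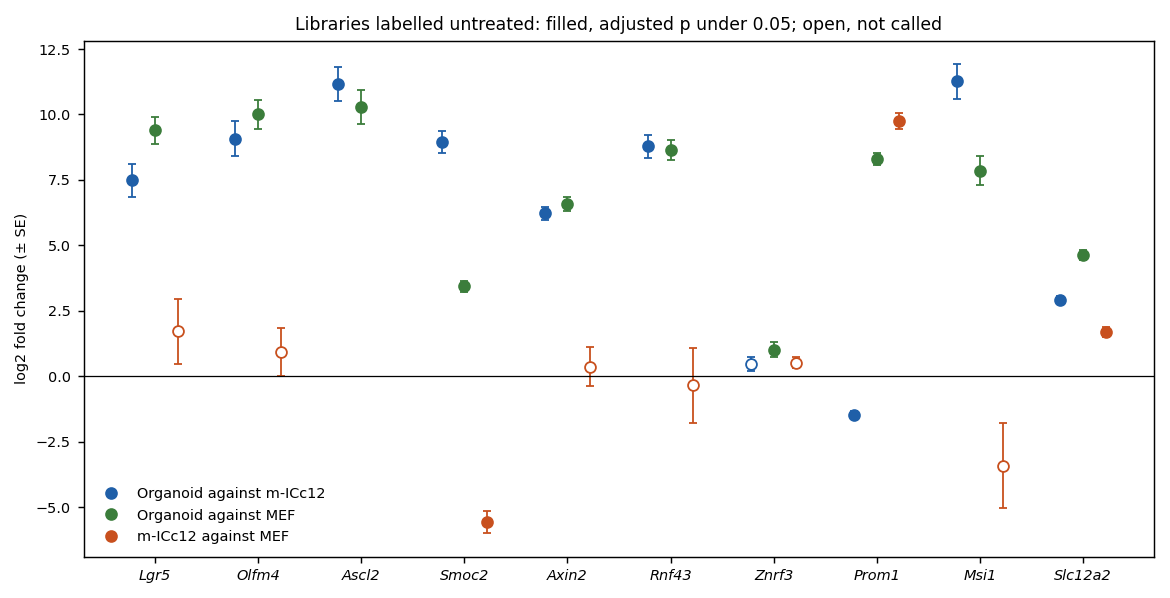
Log2 fold changes with standard errors from edgeR for the 3 comparisons of cell types among libraries labelled untreated, with filled points for an adjusted p under 0.05 and open points otherwise. Prom1 is the only gene below 0 for organoid against m-ICc12, and Smoc2 is the only called gene below 0 for m-ICc12 against MEF; the plotted Ascl2 and Msi1 values against groups at or near 0 counts depend on the fit and are no bound.

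Related gene groups were counted in the same fits. Against m-ICc12, 31.6% of all 12962 genes tested were higher in organoids and 29.3% lower. Of 13 tested Wnt target and feedback genes, 7 were higher and 2 lower in organoids than in m-ICc12, with a median log2 fold change of 1.56. The higher ones included Tnfrsf19 and Sp5, which had no count in m-ICc12 libraries labelled untreated, with means of 3.92 and 1.58 CPM in the organoids, and the lower ones were Lef1, a TCF/LEF factor, and Ccnd1, the gene of cyclin D1. Ccnd1 had a mean of 896 CPM in m-ICc12 and 188 CPM in organoids (log2 difference -2.22 ± 0.17, edgeR, adjusted p = 1.13e-08).

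Of 13 other crypt stem cell signature genes, 10 were higher and 2 lower in organoids than in m-ICc12, with a median of 3.36. The water channel gene Aqp4 was higher by 7.91 ± 0.60 on the log2 scale (edgeR, adjusted p = 6.96e-09), whereas Igfbp4 (-2.59 ± 0.49) and Cdk6 (-0.97 ± 0.12) were lower. The destruction complex had 4 genes higher and 1 lower of 8 and a median of 0.24. Among 10 reserve and regenerative stem cell genes, 3 were higher, such as Hopx (9.43 ± 0.24), and 5 were lower, such as Anxa1 (-4.67 ± 0.38) and Ly6a (-3.27 ± 0.55), with a median of -0.79. Against MEFs, organoids were higher for 5 and lower for 5 of 15 tested Wnt target and feedback genes, and higher for 11 and lower for 1 of 13 other signature genes. Of all 13144 genes tested against MEFs, 34.6% were higher and 32.6% lower, so the Wnt list was near the share of all genes.

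The effect of the colonisation status of the donor was asked by comparing organoids of GF mice with those of SPF mice, among libraries labelled untreated. The mice of each facility were cohoused littermates, so colonisation status cannot be told apart from litter, cage or facility. None of the 10 genes passed (edgeR, adjusted p under 0.05), with 1 at an unadjusted p under 0.05 and 0 with DESeq2, where 4 of 12315 genes or 0.0325% passed in all. That gene was Znrf3, with 31.3, 50.9 and 50.6 CPM in the GF cultures Z917, Z918 and Z919 and 15.5 to 36.2 CPM (median 31.3) in the 6 SPF cultures. The groups overlapped, and the log2 difference was 0.63 ± 0.25 (edgeR, adjusted p = 1.00) and 0.06 ± 0.23 in the libraries labelled TNF.

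Lgr5 had 196, 115 and 220 CPM in the GF cultures and 83.2 to 194 CPM (median 148) in the SPF cultures, a log2 difference of 0.35 ± 0.24. Olfm4 had 621, 728 and 1884 CPM in GF and 561 to 1027 CPM (median 822) in SPF, a log2 difference of 0.45 ± 0.27 that became -0.23 without Z919. Both genes overlapped between the groups, and the 10 log2 differences ranged from 0.02 for Ascl2 to 0.63 for Znrf3.

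Between the SPF facilities SE and SR no gene of the 10 passed, with 0 at an unadjusted p under 0.05 and 0 with DESeq2. Of 12219 genes, 0 passed with edgeR (percent called 0), 486 had an unadjusted p under 0.05 and 8 passed with DESeq2. The log2 differences of the 10 genes lay between -0.13 for Smoc2 and 0.45 for Msi1, each with 3 cultures per facility.

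Single cultures were compared next. In an F-test over the 8 culture terms with the treatment label as a covariate, 8 of the 10 genes differed among the 9 cultures, against 12% of 12104 genes. Rnf43 (adjusted p = 0.925) and Znrf3 (adjusted p = 0.725) were the others. Without the label as a covariate 3 of the 10 genes passed, Lgr5, Smoc2 and Axin2. The error in this test is the spread between libraries of 1 culture, and in the facility comparisons it is the spread between mice, so their calls cannot be set against each other.

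For Lgr5 the mean of both libraries was 183, 93.4 and 170 CPM in the SR cultures Z908, Z909 and Z910. It was 184, 145 and 86.7 CPM in the SE cultures Z911, Z912 and Z913. In the GF cultures Z917, Z918 and Z919 it was 193, 104 and 242 CPM. Each facility held 1 culture at 86.7 to 104 CPM and 2 at 145 CPM or more, and the highest culture stood 2.79 times above the lowest (edgeR, adjusted p = 8.57e-10). Over all 12104 genes, the median of this ratio was 1.65.

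Olfm4 had the widest spread, from a mean of 345 CPM in Z913 to 1283 CPM in Z919, or 3.71-fold (edgeR, adjusted p = 1.35e-13). The other cultures were at 362 to 690 CPM, so that Z919 stood apart. Ascl2 varied 2.61-fold, from 10.9 CPM in Z910 to 28.4 CPM in Z911 (edgeR, adjusted p = 0.0174), and Msi1 varied 2.51-fold, from 23.7 CPM in Z918 to 59.7 CPM in Z919 (edgeR, adjusted p = 0.0145). Smoc2 varied 1.66-fold, Axin2 1.67-fold, Prom1 1.45-fold and Slc12a2 1.37-fold, all with an adjusted p under 0.05. Rnf43 had the smallest ratio of the 10, with means of 105 to 122 CPM and 1.16-fold. In the same F-test 1448 of all 12104 genes passed. Of the related lists, 4 of 13 Wnt target and feedback genes and 6 of 13 other signature genes differed among cultures. Among reserve and regenerative genes 4 of 10 differed, and among destruction complex genes 0 of 8. Of these lists, Ly6a was the lowest in adjusted p (edgeR, adjusted p = 5.99e-11).

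Over the 9 culture means on the log2 scale, Lgr5 went with Smoc2 (Pearson's r = 0.93, Spearman's rho = 0.77) and Prom1 (r = 0.93, rho = 0.87). Without the 2 cultures farthest from the median of Lgr5, r was 0.88 and 0.94. For Olfm4 r was 0.74 (0.64 without these 2 cultures), for Slc12a2 0.84 (0.56), for Axin2 0.70 (0.46) and for Msi1 0.31 (0.82). For Ascl2 it was 0.23 (0.52), for Rnf43 -0.16 (-0.38) and for Znrf3 -0.26 (-0.56). Each point combines both libraries of 1 mouse and all values in a library share its total, so these coefficients describe the cultures and carry no test.

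Enterocyte markers moved with these differences. The summed level of 7 of them, all of which differed among cultures, was 1942 CPM in Z919 and 2743 to 2865 CPM in Z908, Z910, Z911 and Z917. It was 4351 CPM in Z912, 4885 CPM in Z909, 5977 CPM in Z913 and 6142 CPM in Z918. The cultures with the lowest Lgr5, Z913, Z909 and Z918, had the highest sums. Pearson's r of this sum with Lgr5 was -0.96 over the 9 cultures (rho = -0.95, and -0.99 without the 2 cultures farthest in Lgr5), with Prom1 -0.95, with Smoc2 -0.93, with Olfm4 -0.73 and with Ascl2 -0.25. Without the 2 cultures farthest from the median of the gene in question, these became -0.89, -0.88, -0.46 and -0.28. Proliferation markers summed to 1633 to 2073 CPM and had r = 0.82 with Lgr5, which fell to 0.46 without the same cultures. Intestinal identity markers had r = 0.85 with Lgr5 (0.68 without these cultures). For Paneth, goblet, enteroendocrine and tuft sums r with Lgr5 was -0.18, 0.11, -0.30 and -0.34 (0.25, -0.40, -0.29 and -0.012 without these cultures). In the F-test over cultures, 1448 of all 12104 genes passed. Of the other markers, 5 of 5 goblet, 4 of 6 proliferation and 2 of 4 tested Paneth genes differed. Among enteroendocrine genes 1 of 4 differed, and among tuft genes 0 of 4. The part of any of these markers' cells in the levels of the stem cell genes was not tested.

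**Figure D3:**
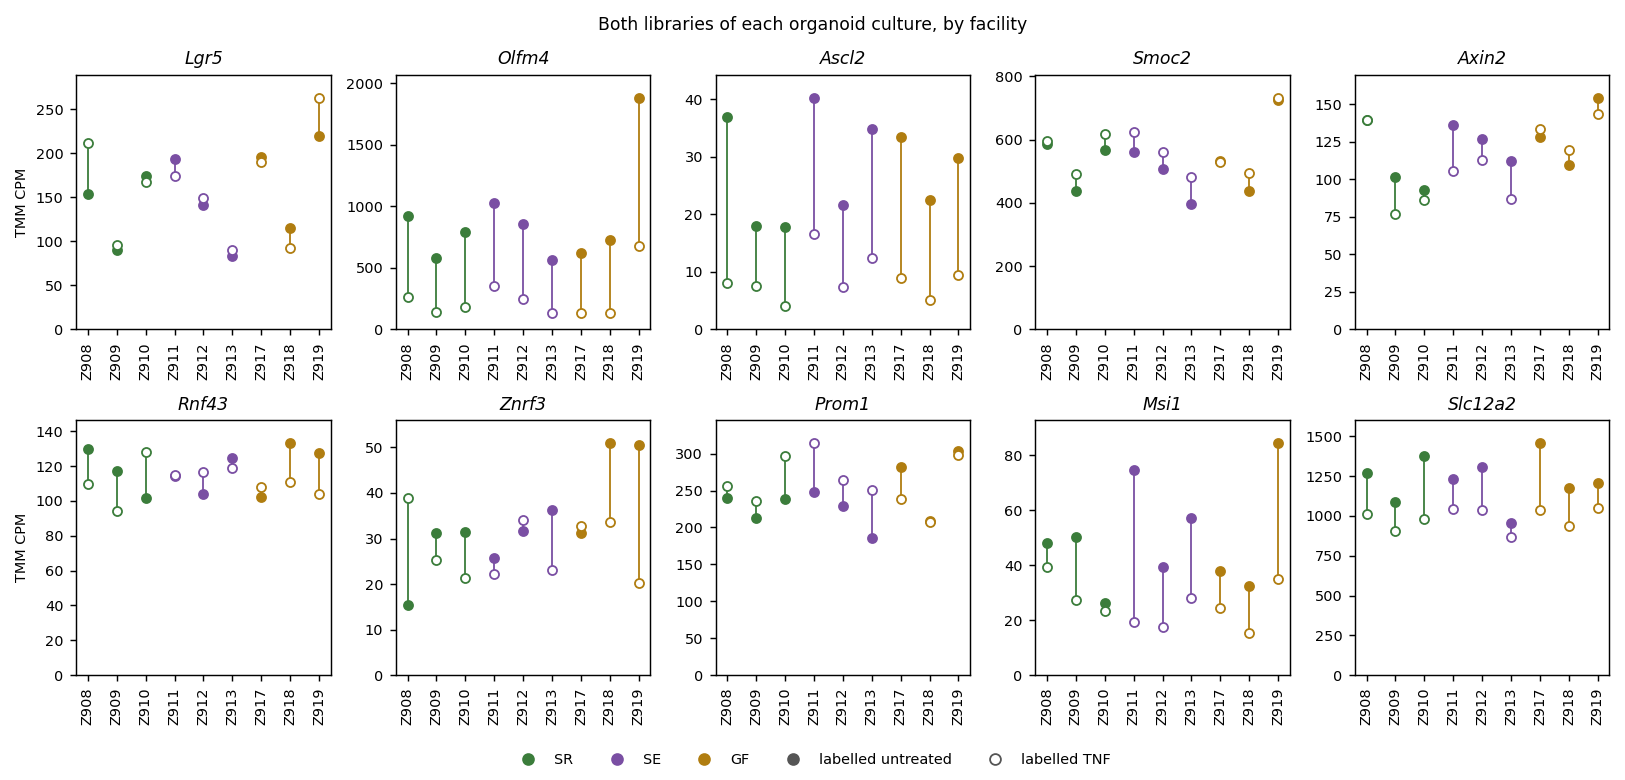
TMM CPM of each gene in both libraries of the 9 organoid cultures, with colours for the facilities, filled points for libraries labelled untreated, open points for libraries labelled TNF and a line that joins the libraries of 1 culture. Olfm4, Ascl2, Msi1 and Slc12a2 have the filled point on top in all 9 cultures, whereas the Lgr5 points of a culture lie close together and the cultures differ.

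**Figure D4:**
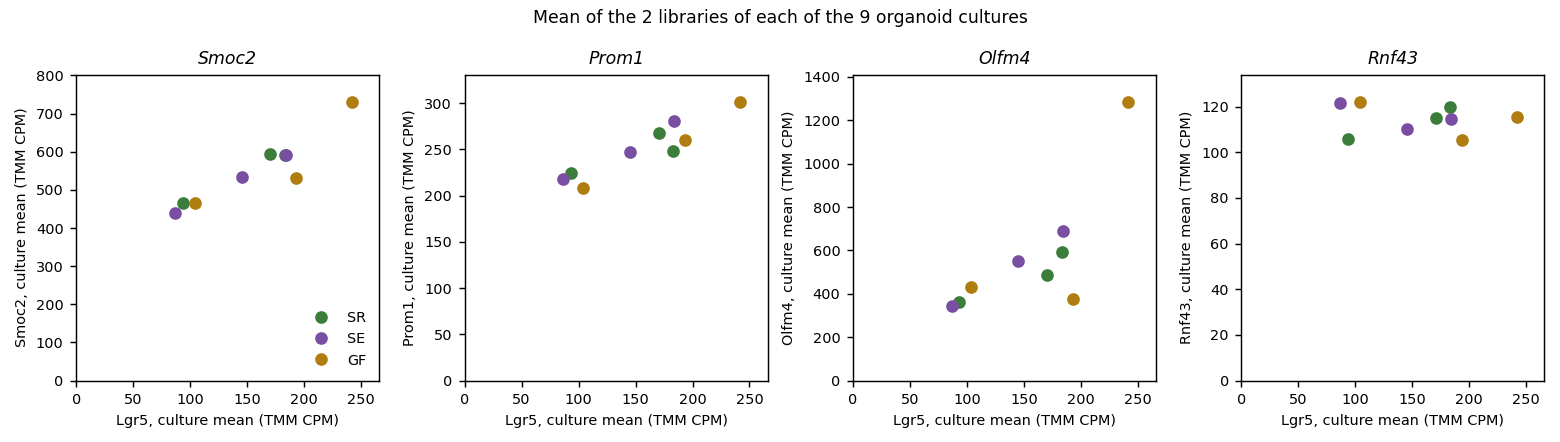
Mean TMM CPM of both libraries of each of the 9 organoid cultures, with Lgr5 on the horizontal axis and Smoc2, Prom1, Olfm4 or Rnf43 on the vertical axis, coloured by facility. Smoc2 and Prom1 go up with Lgr5, Olfm4 is set apart by 1 culture at 1283 CPM, and Rnf43 stays between 105 and 122 CPM.

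Genes with the most similar pattern were ranked by Pearson's r of log2 CPM over the 18 organoid libraries. For Lgr5 they were Smoc2 (0.85), Lbr (0.85), Stip1 (0.85), Agpat5 (0.83) and Ifitm2 (0.82). With the mean of each label subtracted, 3 of these 5 remained among the first 5. For Olfm4 they were Far2 (0.95), Clca3b (0.92), Lcp1 (0.91), Nav2 (0.90) and Slc27a2 (0.90), of which 0 remained. The difference between the labels thus entered the likeness to Olfm4.

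The libraries labelled TNF were then compared with those labelled untreated, without the culture in the fit except where a block is named, and the ratio within each culture is given beside the test. In organoids 4 of the 10 genes were lower under the label TNF and 0 were higher (edgeR, adjusted p under 0.05). Over all 12104 genes 1.26% were lower and 0.124% higher. The 4 genes were Olfm4, Ascl2, Msi1 and Slc12a2, and they were also the members lower under the label TNF in all 9 cultures, which 1.87% of genes were, against 1.08% that were higher in all 9. With the culture as a block the same number of 10, 4, passed, while the number of all genes passing rose from 168 to 397.

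In the SR cultures Z908, Z909 and Z910, Olfm4 stood at 917.95, 582 and 788 CPM under the label untreated and at 264, 142 and 182 CPM under the label TNF. The SE cultures Z911, Z912 and Z913 had 1027, 857 and 561 CPM against 353, 250 and 130 CPM. The GF cultures Z917, Z918 and Z919 had 621, 728 and 1884 CPM against 131, 130 and 681 CPM. Each culture was lower under the label TNF, though the groups overlapped because Z919 was high under both labels. The ratio of untreated to TNF label was 2.77 to 5.62 with a median of 4.11, and the log2 difference was -1.82 ± 0.29 (edgeR, adjusted p = 0.000238), or -1.96 ± 0.07 with the block.

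Ascl2 had 36.9, 17.95 and 17.8 CPM in Z908, Z909 and Z910 under the label untreated and 8.06, 7.45 and 4.03 CPM under the label TNF. In Z911, Z912 and Z913 the values were 40.2, 21.6 and 34.8 CPM against 16.6, 7.30 and 12.3 CPM. Z917, Z918 and Z919 had 33.4, 22.5 and 29.8 CPM against 8.88, 5.005 and 9.51 CPM. Every library labelled untreated was above every library labelled TNF. The ratio was 2.41 to 4.58 with a median of 3.13, and the log2 difference was -1.70 ± 0.23 (edgeR, adjusted p = 3.45e-05).

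Msi1 ranged from 26.3 to 84.2 CPM (median 48.1) under the label untreated and from 15.1 to 39.3 CPM (median 24.5) under the label TNF. The groups overlapped, but the ratio within a culture was 1.14 to 3.85 and the log2 difference was -0.98 ± 0.20 (edgeR, adjusted p = 0.00666). Slc12a2 ranged from 955 to 1456 CPM (median 1233) and from 869 to 1049 CPM (median 1011). Its difference was small and even, with ratios of 1.10 to 1.41 and a log2 difference of -0.33 ± 0.07 (edgeR, adjusted p = 0.0134). Without Z910 its adjusted p was 0.0613 in this unpaired fit, and with the culture as a block and all 9 cultures it was 1.08e-06.

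The other 6 genes did not pass. Lgr5 ranged from 83.2 to 220 CPM (median 154) under the label untreated and from 90.1 to 263 CPM (median 167) under the label TNF, with 4 cultures lower and 5 higher and a log2 difference of 0.06 ± 0.20 (edgeR, adjusted p = 0.977). Smoc2 was higher under the label TNF in 8 of 9 cultures, with a log2 difference of 0.11 ± 0.10. For Axin2 the log2 difference was -0.14 ± 0.12, for Rnf43 -0.07 ± 0.08, for Znrf3 -0.28 ± 0.18 and for Prom1 0.13 ± 0.09. Each of these 6 genes had cultures in both directions. With the culture as a block Smoc2 was at 0.12 ± 0.04, Prom1 at 0.14 ± 0.06 and Axin2 at -0.15 ± 0.07. Their unadjusted p was 0.0133, 0.0324 and 0.0382 (edgeR), and none of them passed (adjusted p = 0.181, 0.296 and 0.318). For Lgr5, Rnf43 and Znrf3 the unadjusted p with the block was 0.542, 0.334 and 0.145 (edgeR).

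Of the related lists, 0 of 13 tested Wnt target and feedback genes and 0 of 10 reserve and regenerative genes passed in organoids, with medians of -0.04 and -0.08 on the log2 scale. In the same fit, 1.26% of all 12104 genes were lower and 0.124% higher. The beta-catenin gene Ctnnb1, the 1 of 8 destruction complex genes that passed, was lower under the label TNF by -0.25 ± 0.06 (edgeR, adjusted p = 0.0230), and Vdr, the vitamin D receptor gene and 1 of 13 other signature genes, by -0.38 ± 0.08 (edgeR, adjusted p = 0.00711). Markers of differentiated cells were set beside these genes. Enterocyte markers summed to 1918 to 6019 CPM under the label untreated and to 1966 to 6500 CPM under the label TNF, Paneth markers to 106 to 303 and 109 to 256 CPM, and proliferation markers to 1622 to 2107 and 1644 to 2045 CPM. None of the 7 enterocyte, 4 tested Paneth, 5 goblet, 4 enteroendocrine, 4 tuft and 6 proliferation genes passed between the labels.

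In m-ICc12, none of the 8 genes with enough counts passed between the labels (edgeR, with 0 at an unadjusted p under 0.05 and 0 with DESeq2), where 13 of 11861 genes or 0.110% passed. Prom1 stood at 673, 905 and 468 CPM in M1, M2 and M3 under the label untreated and at 792, 740 and 660 CPM under the label TNF, a log2 difference of 0.12 ± 0.20. Slc12a2 stood at 128, 185 and 187 CPM and at 168, 134 and 168 CPM, a log2 difference of -0.08 ± 0.18. The labels overlapped for both genes. Olfm4 had 1.41, 3.20 and 0.361 CPM against 3.48, 0.970 and 0.432 CPM, with no common direction, and Ascl2 had no count in the 3 libraries labelled TNF.

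The difference of the organoid and m-ICc12 label effects was tested as an interaction. With edgeR, 0 of the 10 genes passed, 2 had an unadjusted p under 0.05 and 1 passed with DESeq2, where 21 of 13183 genes or 0.159% passed with edgeR. The last was Msi1, with a log2 difference of -4.51 ± 1.03 (edgeR, adjusted p = 0.0808), which passed with the culture as a block (adjusted p = 0.0152). Its m-ICc12 values were 1, 1 and 0 counts under the label untreated and 2, 3 and 9 counts under the label TNF, so the interaction rested on very few counts. The other gene with an unadjusted p under 0.05 was Axin2, at 0.79 ± 0.38 (edgeR, adjusted p = 0.755). With the block Axin2 was at 0.73 ± 0.24 (edgeR, adjusted p = 0.268). For Olfm4 the interaction was -1.24 ± 0.93 (edgeR, adjusted p = 0.951), and for Slc12a2 it was -0.24 ± 0.17. With the block these were -1.37 ± 0.46 (edgeR, adjusted p = 0.284) and -0.24 ± 0.14.

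The difference of the label effect between GF and SPF organoids was tested in the same way. Of the 10 genes 0 passed with edgeR, 0 had an unadjusted p under 0.05 and 0 passed with DESeq2, and of 12640 genes 0 passed (percent called 0), with 323 at an unadjusted p under 0.05 and 1 with DESeq2. The interaction was 0.06 ± 0.58 on the log2 scale for Olfm4 and -0.26 ± 0.50 for Ascl2. With the culture as a block it was -0.17 ± 0.15 for Olfm4 and -0.26 ± 0.35 for Ascl2. In that fit 0 of the 10 genes and 0 of 12640 genes passed. Prom1 had an unadjusted p of 0.00506 there (edgeR, log2 difference -0.35 ± 0.12). Ratios of untreated to TNF label overlapped between GF and SPF cultures for Olfm4 and Ascl2, as the values above show.

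**Figure D5:**
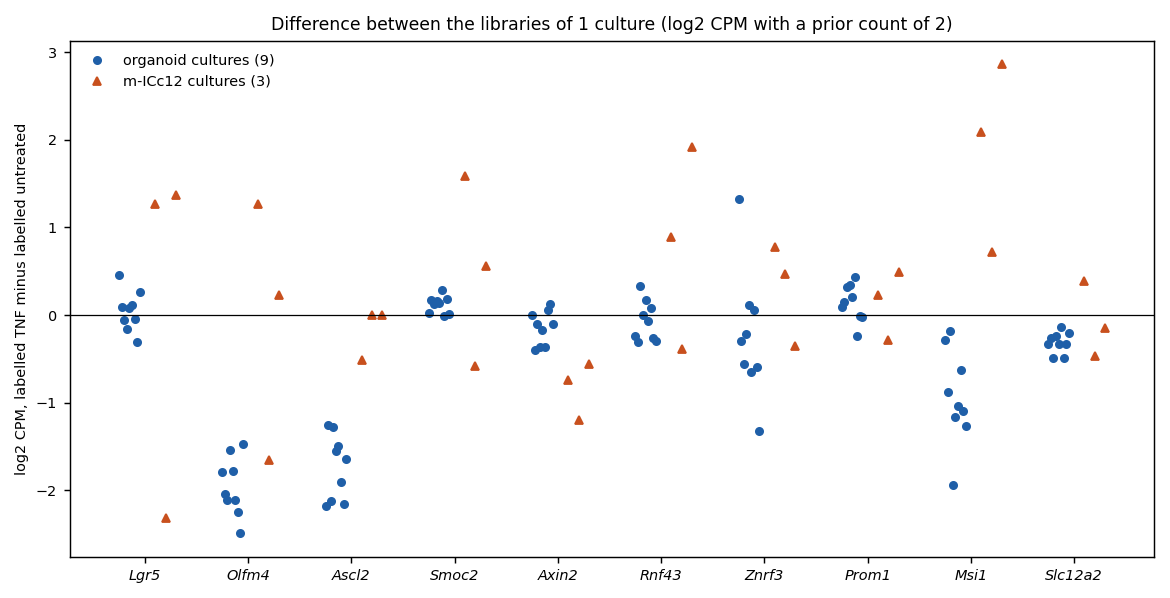
Log2 CPM (prior count 2) of the library labelled TNF minus that labelled untreated for each of the 9 organoid cultures (circles) and the 3 m-ICc12 cultures (triangles). All 9 circles lie below 0 for Olfm4, Ascl2, Msi1 and Slc12a2 and on both sides of 0 for the other genes, while the triangles for genes at few counts spread widely.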

How the data were processed

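RNA-seq counts of 27 libraries were analysed. The authors trimmed single-end reads of polyA-selected RNA, aligned them to GRCm38 (Ensembl annotation) with STAR and deposited them as counts per gene, whole numbers without normalization. The submitters' processing notes name featureCounts and STAR 2.5.4b, whereas the study's methods name GenomicRanges as the counter; the use of strand and of reads with several alignments was not given in the sources used here. A total of 22214 of 22524 identifiers matched a symbol in GENCODE vM21.

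Samples were grouped by their labels. The members and the other gene lists were chosen with earlier results of these data known. Every member is named, together with the 2 genes of each other list with the largest log2 fold change among those passing in each direction, and the 5 genes most correlated with Lgr5 and with Olfm4.

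Counts were tested in R 4.3.3 with edgeR 4.0.16 (quasi-likelihood F-test with TMM and a Benjamini-Hochberg adjusted p under 0.05 over all genes tested), after removing genes that did not reach 10 counts in 50% or more of any group's libraries, with only the groups compared in a fit. Tables were made with Python 3.11.15, numpy 2.4.6, pandas 2.3.3 and scipy 1.17.1, and the fits were tested on simulated data. CPM used TMM over all 27 libraries, and log2 CPM a prior count of 2. Totals of 6071103 to 43843615 counts set a floor of 3 counts at 0.0657 to 0.523 CPM on that scale, which covers counting error only. Replicate libraries differed by far more than sampling noise (mean chi-square per gene of at least 46.3 for any pair).

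Both libraries of an organoid culture come from 1 mouse, as the culture number in the titles shows. Their deviations from the label means correlated with r of 0.0821 to 0.311 (mean 0.171, other pairs -0.0200), and each of the 9 pairs correlated best with its own number. The block was therefore run as an alternative. Other alternatives were DESeq2 1.42.0 with its size factors, no filter on low counts, the label exchanged, both libraries of a culture summed, the facility as a covariate, 1 fit of all libraries, the criteria of the study (p up to 0.05 without adjustment, log2 change of 0.5 or more) and leaving out each culture.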

Additional observations from a re-analysis of the deposited data

Results flagged for a closer look

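Of 30 sets of values checked for a library far from the rest of its group (about 1 in 20 is expected by chance), 1 met the criterion. Olfm4 in the organoid culture Z919 stood at 10.88 on the log2 CPM scale, or 1884 CPM, among the 9 libraries labelled untreated, of which the next was at 1027 CPM. The library of the same culture labelled TNF was also the highest of its label, at 681 CPM against 353 CPM in the next. Z919 had the highest Lgr5, Smoc2 and Msi1 and the lowest enterocyte marker sum of the 9 cultures.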

How the results depend on the processing

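Organoids against m-ICc12 (9 of the 10 genes called), organoids against MEF (10) and the label TNF in organoids (4) kept these numbers with DESeq2, without the filter and, where run, with the libraries labelled TNF, both libraries summed, all libraries in 1 fit, the facility as a covariate and the block. Leaving out 1 culture changed the call of Znrf3 for organoids against m-ICc12 (adjusted p = 0.0395 without Z908), of Znrf3 for m-ICc12 against MEF (0.0427 without R2) and of Slc12a2 between labels in organoids (0.0613 without Z910), all by edgeR. For m-ICc12 against MEF, 5 of the 10 genes passed with all 27 libraries in 1 fit. For GF against SPF, 21 genes in all passed with DESeq2, 7 with both libraries of a culture summed and 313 by the criteria of the study (1 of the 10), and 2 to 5 without 1 culture. For SE against SR, 8 passed with DESeq2, 5 without the filter, 1 in the libraries labelled TNF, 1 when summed and 376 by the criteria of the study, and 0 to 35 without 1 culture. Between labels in organoids, 397 passed with the culture as a block and 352 by the criteria of the study (3 of the 10, without Slc12a2). In m-ICc12, 46 passed with DESeq2, 30 without the filter, 6 with the block and 445 by the criteria of the study, and 15 to 93 without 1 culture. For organoids minus m-ICc12, 74 passed with DESeq2 (1 of the 10) and 103 with the block (1 of the 10), and 11 to 40 without 1 culture. For GF minus SPF, 1 passed with DESeq2. Among cultures, 2556 passed with DESeq2 and 829 (3 of the 10) without the label as a covariate. The cause of these shifts was not tested.

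Of the results of single genes, 1075 kept their call and, where there was one, their direction, while 9 gained and 6 lost a call. Lost calls included Olfm4, Ascl2, Prom1, Msi1 and Slc12a2 in the F-test over cultures without the label, which gives no log2 difference. Another 65 turned direction, none of them past the threshold in the comparison as reported. In libraries labelled TNF these were Znrf3 (-0.19) for organoids against m-ICc12, Axin2 (-0.41) and Msi1 (0.42) for m-ICc12 against MEF, Ascl2 (-0.25), Rnf43 (-0.085), Prom1 (-0.12) and Msi1 (-0.051) for GF against SPF, and Rnf43 (0.077), Znrf3 (-0.099), Prom1 (0.073), Msi1 (-0.47) and Slc12a2 (0.030) for SE against SR. With both libraries summed they were Ascl2 (-0.058), Rnf43 (-0.023) and Msi1 (-0.090) for GF against SPF, and Rnf43 (0.027) and Slc12a2 (0.0049) for SE against SR. With the block they were Lgr5 (0.27) in m-ICc12, Prom1 (-0.011, and -0.0061 with DESeq2) for organoids minus m-ICc12 and Olfm4 (-0.17) for GF minus SPF.

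Leaving out 1 culture gave these ranges where the direction turned. For m-ICc12 against MEF they were -0.11 to 2.22 for Lgr5 (lowest without M2) and -0.87 to 0.95 for Rnf43. For GF against SPF they were -0.23 to 0.72 for Olfm4, -0.12 to 0.16 for Ascl2, -0.073 to 0.30 for Smoc2, -0.010 to 0.17 for Rnf43, -0.49 to 0.30 for Msi1 and -0.026 to 0.14 for Slc12a2. For SE against SR they were -0.32 to 0.26 for Lgr5, -0.11 to 0.30 for Olfm4, -0.24 to 0.0036 for Smoc2, -0.11 to 0.062 for Rnf43, -0.0087 to 0.42 for Znrf3, -0.16 to 0.045 for Prom1 and -0.20 to 0.023 for Slc12a2. Between labels in m-ICc12 they were -1.36 to 1.52 for Lgr5, -1.32 to 1.14 for Olfm4, -0.31 to 1.46 for Smoc2, -0.028 to 0.37 for Prom1 and -0.30 to 0.12 for Slc12a2. For organoids minus m-ICc12 they were -1.28 to 1.52 for Lgr5, -1.70 to 0.26 for Ascl2, -0.85 to 0.36 for Smoc2, -0.88 to 0.034 for Rnf43 and -0.22 to 0.17 for Prom1. For GF minus SPF they were -0.23 to 0.050 for Lgr5, -0.54 to 0.22 for Olfm4, -0.34 to 0.098 for Msi1 and -0.12 to 0.037 for Slc12a2. The number of m-ICc12 counts, 0 to 9 for Ascl2 and Msi1, limits what can be said of them in that line.

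In m-ICc12 the libraries of a culture share a number but deviated together little (mean r 0.0311), and m-ICc12 and MEF share only numbers (mean r -0.0118), for which the block left 3 of the 10 genes and 7158 genes in all.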
